A study of Homo sapiens with 6 samples.

Results

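The probes described here were the 52 rows of a human microRNA (miRNA) array whose names end in "-pre" or "-Pre" and whose miRNA number is under 500, with the let-7 precursors included. They made up 52 of the 581 probes with values, and 52 of the 104 precursor probes. The arrays measured RNA of Hep3B, a human hepatocellular carcinoma cell line, transfected by lipofection with empty pcDNA3.1 (Mock, 3 arrays) or with pcDNA3.1 carrying HDAC6 (HDAC6, 3 arrays). HDAC6 is a deacetylase found mostly in the cytoplasm, with tubulin among its substrates, and the series title places the question in miRNAs regulated by HDAC6 in liver cancer. All groups therefore shared the cell line, the plasmid backbone and the transfection, and no time of harvest was read from the labels. RNA from 3 extractions was mixed into 1 pool per condition, so the arrays of a group may be repeated hybridizations of that pool and their spread may be technical. HDAC6 mRNA was not measured on these arrays, and its level was not checked.

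A miRNA is made in steps. The enzyme Drosha cuts a hairpin out of a long primary transcript, the hairpin is exported to the cytoplasm, and Dicer cuts it into a short duplex, of which the guide strand usually enters the silencing complex and the star strand is usually lost. A precursor probe is named for the hairpin and a mature probe for the short product, and the level of either can be set by transcription, by cutting or by decay. Every hairpin holds the sequence of its mature strands, and the probe sequences were not used here, so which of the forms a probe bound was not tested.

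Of the 52 probes, 47 matched a hairpin in the RefSeq table of GRCh38.p14. Those named without a match were miR-28, miR-155, miR-220a, miR-320a and miR-370. The hairpins below are those of the 5 precursor probes whose rise held when any single array was left out, of miR-211, and of the matched precursors that fell. They are written 5′ to 3′ as RNA, and capitals mark the mature strands that the table lists.
miR-192 hairpin, chr11:64891137-64891246, minus strand: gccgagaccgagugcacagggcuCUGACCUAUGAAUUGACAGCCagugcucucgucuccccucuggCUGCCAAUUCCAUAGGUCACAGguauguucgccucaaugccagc
miR-139 hairpin, chr11:72615063-72615130, minus strand: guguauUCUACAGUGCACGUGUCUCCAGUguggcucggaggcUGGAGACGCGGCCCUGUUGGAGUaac
miR-125a hairpin, chr19:51693254-51693339, plus strand: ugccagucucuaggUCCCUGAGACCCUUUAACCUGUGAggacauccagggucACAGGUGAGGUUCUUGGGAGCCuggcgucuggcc
miR-346 hairpin, chr10:86264694-86264788, minus strand: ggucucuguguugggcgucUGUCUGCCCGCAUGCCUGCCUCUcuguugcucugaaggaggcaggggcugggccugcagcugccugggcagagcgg
miR-345 hairpin, chr14:100307859-100307956, plus strand: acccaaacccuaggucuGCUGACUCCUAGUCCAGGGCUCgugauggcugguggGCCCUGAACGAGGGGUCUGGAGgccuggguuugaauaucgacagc
miR-211 hairpin, chr15:31065032-31065141, minus strand: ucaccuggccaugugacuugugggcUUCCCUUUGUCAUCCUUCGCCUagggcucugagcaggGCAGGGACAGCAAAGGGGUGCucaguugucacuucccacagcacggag
miR-92a-1 hairpin, chr13:91351314-91351391, plus strand: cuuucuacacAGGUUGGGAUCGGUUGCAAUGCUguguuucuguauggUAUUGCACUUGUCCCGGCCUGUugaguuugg
miR-26a-2 hairpin, chr12:57824609-57824692, minus strand: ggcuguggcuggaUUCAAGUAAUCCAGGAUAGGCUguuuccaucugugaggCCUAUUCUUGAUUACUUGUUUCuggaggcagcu

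The mature strands on which the comparison of mature with precursor probes turned are shown with the seed, bases 2 to 8, in capitals. Under current names the miR-192 probe corresponds to the 5p strand and the miR-192* probe to the 3p strand, and the miR-30c probe to the 5p strand.
hsa-miR-192-5p: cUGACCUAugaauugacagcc
hsa-miR-192-3p: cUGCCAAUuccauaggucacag
hsa-miR-125a-5p: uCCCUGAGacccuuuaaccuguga
hsa-miR-125a-3p: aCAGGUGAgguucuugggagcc
hsa-miR-30c-5p: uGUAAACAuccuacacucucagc
None of these 5 seeds recurred in another matched hairpin. Seeds shared between hairpins were GAGGUAG, in the 5p strands of let-7a, let-7e and let-7i, CAGUGCA, in the 3p strands of miR-148b and miR-152, and AAUACUG, in the 3p strands of miR-200b and miR-200c.

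All values are the authors' quantile-normalized signals on a log2 scale, on which 1 unit is a 2-fold change. The precursor probes were mostly dim. Their means over the 6 arrays ran from 5.94 to 9.76 with a median of 6.64, and 39 of the 52 lay below the median of all probes, 7.55. No flag for detection came with the values, so whether a dim probe stood above background is unknown. The row named "none", whose content the sources used here do not describe, read 6.92, 6.07 and 8.73 on the Mock arrays and 5.48, 6.46 and 5.88 on the HDAC6 arrays. MiR-122, the main hepatocyte miRNA, had a mature probe at 7.42 ± 0.20 in Mock (SD, n = 3) and 7.82 ± 0.27 in HDAC6.

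By correlation, Mock 3 stood apart from the other Mock arrays over these probes. Across the 52 probes it correlated at r = 0.727 with Mock 1 and 0.709 with Mock 2, but at 0.797 to 0.844 with the HDAC6 arrays, whereas Mock 1 and Mock 2 correlated at 0.860. Across all 581 probes it correlated at 0.922 and 0.923 with the other Mock arrays, which correlated at 0.952 with each other. Over all probes it thus also stood somewhat apart, but its correlations with the HDAC6 arrays were lower, at 0.779 to 0.825. By distance from the mean of the other 2 Mock arrays, Mock 2 was instead the farthest for 24 of the 52 probes. Mock 3 was the farthest for 17 and Mock 1 for 11. The median distances were 0.42 for Mock 2, 0.31 for Mock 3 and 0.30 for Mock 1. The HDAC6 arrays correlated at 0.909 to 0.960 over the 52 probes. The median SD of a precursor probe was 0.340 among Mock arrays and 0.164 among HDAC6 arrays.

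Each probe was tested in a fit over all 581 probes (limma, two-sided, Benjamini-Hochberg adjusted p under 0.05). The probes were picked by name, but the limit at number 500 was chosen on log2 differences between these same groups, so counts and medians over the 52 probes are given as a description. In HDAC6, 11 of the 52 precursor probes were higher, 21.2%, and among all probes 21.3% were higher. Lower were 3 of the 52, 5.77%, where 24.4% of all probes were lower, and 38 did not pass. The split of 11 higher and 3 lower was 13 and 1 with repeated quantile normalization, 11 and 1 with an offset added to the signals, and 5 and 1 with arrays centred on control probes. Without Mock 3 it was 12 and 2, and without HDAC6 1 it was 7 and 1. The 3 lower became 0 without Mock 1 or without HDAC6 3, 1 without HDAC6 2, and 5 without Mock 2. Counts over all probes moved as well, from 124 higher and 142 lower. They were 134 and 113 with repeated quantile normalization, 120 and 118 with the offset, and 81 and 85 with control-probe centring. Without Mock 3 they were 118 and 128, and without HDAC6 1 they were 86 and 93. In the main fit the share of higher precursor probes was thus close to that of the whole array.

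The median difference over the 52 probes was 0.10 on the log2 scale, against -0.09 over all probes. Differences ran from -1.93 to 1.69, with 29 above 0 and 23 below. The groups did not overlap for 14 probes that were higher and 5 that were lower in HDAC6, where 27.0% of all probes were higher and 29.8% lower without overlap. For comparison, 21 of the 52 precursor probes numbered from 500 were higher and 3 lower, with a median of 0.38, and 28 of those 52 lay below the median of all probes. The difference between these groups of precursors was not tested.

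**Figure D1:**
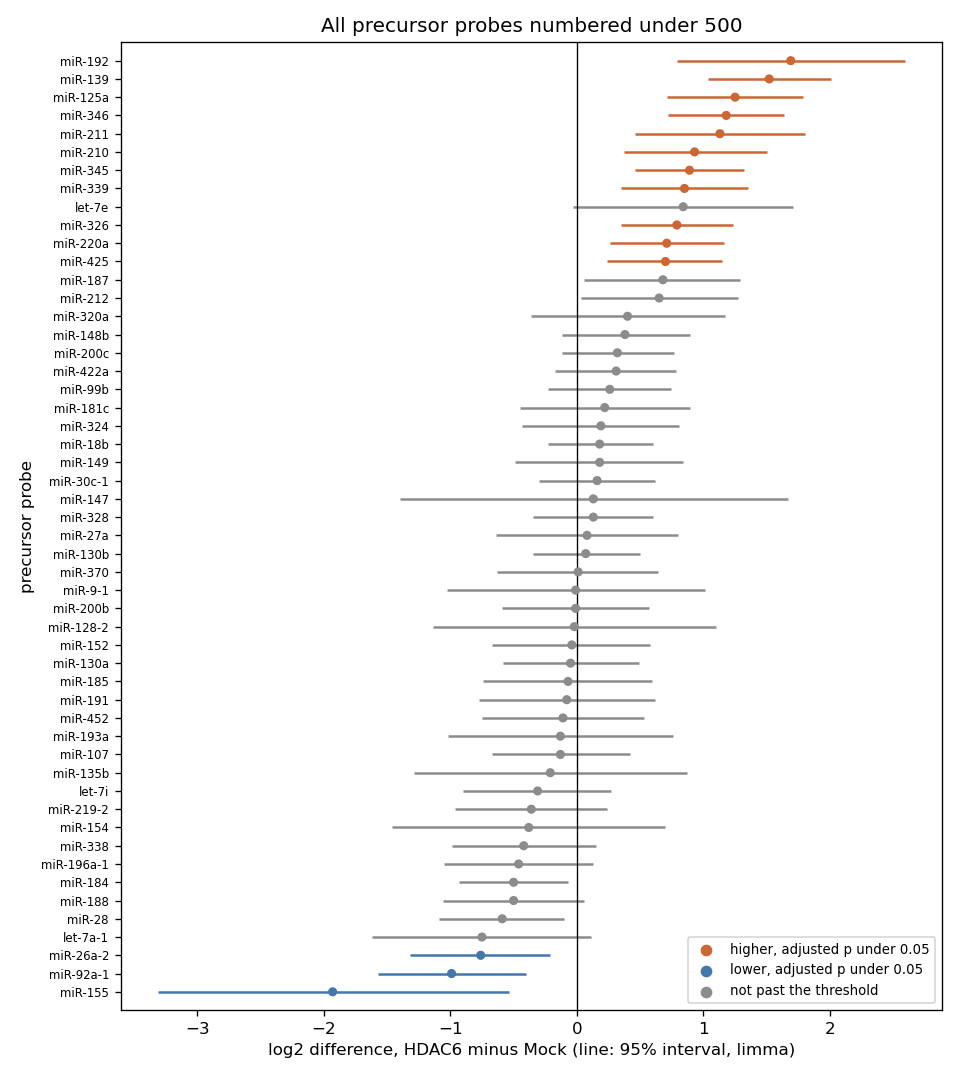
Log2 difference (x axis, HDAC6 minus Mock) of each of the 52 precursor probes numbered under 500 (y axis, sorted), with points for the limma estimate and lines for its 95% interval. The 11 probes higher in HDAC6 stand toward the top, with let-7e, whose interval reaches below 0, among them. The 3 lower ones stand at the bottom, and the 38 in grey did not pass an adjusted p of 0.05.

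The largest rise was that of the precursor of miR-192, a miRNA abundant in liver and intestine. Its probe read 8.20, 8.36 and 6.96 on the Mock arrays and 9.44, 9.93 and 9.23 on the HDAC6 arrays. The HDAC6 arrays were all above the Mock arrays, among which Mock 3 was the low one. The rise was 3.23-fold, 1.69 on the log2 scale (SE 0.389, limma, adjusted p = 0.011), and 2.39-fold without Mock 3 (adjusted p = 0.0115).

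The precursor of miR-139, which is lowered in many liver tumours, rose next most. It read 8.34, 8.61 and 8.41 in Mock and 9.92, 10.27 and 9.75 in HDAC6. The lowest HDAC6 array was more than 1 unit above the highest Mock array. The mean went from 8.45 ± 0.14 to 9.98 ± 0.27 (SD, n = 3), a 2.88-fold rise (SE 0.211 on the log2 scale, adjusted p = 0.0027). Its mature 3p probe rose with it, from 8.54 ± 0.20 to 9.79 ± 0.16.

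The precursor of miR-125a, a miRNA that represses ERBB2 and LIN28, read 6.83, 7.32 and 7.58 in Mock and 8.47, 8.55 and 8.45 in HDAC6. The HDAC6 arrays lay close together and above every Mock array, and the rise was 2.38-fold (log2 difference 1.25, SE 0.232, adjusted p = 0.0049). The precursor of miR-346, which is known mainly from brain, read 8.73, 9.07 and 9.07 in Mock and 10.03, 10.05 and 10.33 in HDAC6. It rose 2.27-fold without overlap of the groups (SE 0.199, adjusted p = 0.0038), and its mature probe also rose, from 10.08 ± 0.39 to 10.87 ± 0.11. The precursor of miR-345 read 9.11, 9.36 and 9.30 in Mock and 10.19, 10.24 and 10.02 in HDAC6, a 1.85-fold rise (SE 0.185, adjusted p = 0.0076). For these 5 precursors the call held when any single array was left out. With arrays centred on control probes, that of miR-345 was lost (adjusted p = 0.0534).

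The precursor of miR-211, a miRNA of pigment cells encoded within TRPM1, read 7.59, 7.66 and 8.03 in Mock and 8.56, 9.48 and 8.63 in HDAC6. HDAC6 2 was the high array of its group, and the rise was 2.19-fold (SE 0.289, adjusted p = 0.0155, but 0.0536 without Mock 1). The precursor of miR-210, the miRNA most firmly tied to hypoxia, read 6.49, 6.95 and 7.15 in Mock and 7.58, 8.06 and 7.76 in HDAC6. That was a 1.91-fold rise (SE 0.243, adjusted p = 0.0169), which did not pass when Mock 1 was left out (0.053) or with control-probe centring (0.0567).

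The other 4 rises were smaller. The precursors of miR-339, miR-326, miR-220a and miR-425 rose 1.80-fold, 1.73-fold, 1.63-fold and 1.62-fold (limma, adjusted p from 0.0123 to 0.0218), each without overlap of the groups. The miR-326 precursor, whose mature form is known in brain and as a repressor of Notch receptors, went from 7.23 ± 0.17 to 8.03 ± 0.11. The miR-425 precursor went from 6.42 ± 0.18 to 7.11 ± 0.14. All 4 calls were lost with control-probe centring (adjusted p from 0.0534 to 0.095). Each was also lost without HDAC6 1 (0.0592 to 0.0953), those of miR-339 and miR-425 without HDAC6 3 (0.0561 and 0.0739), those of miR-220a and miR-425 without Mock 1 (0.0652 and 0.0591), and that of miR-425 without Mock 2 (0.0547).

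**Figure D2:**
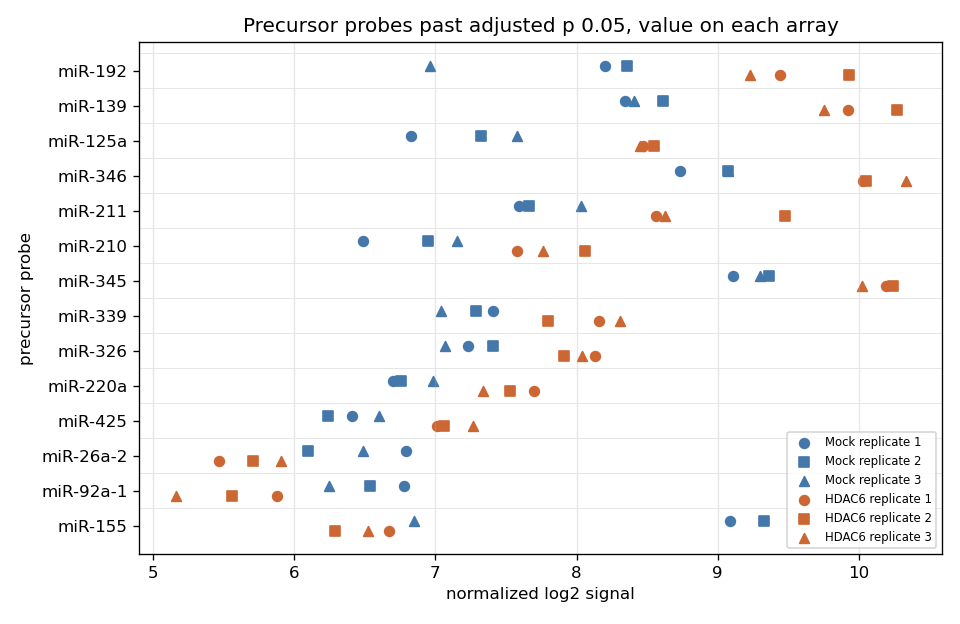
Normalized log2 signal (x axis) on each array for the 14 precursor probes past an adjusted p of 0.05 (y axis), with Mock arrays in blue, HDAC6 arrays in orange and the marker shape giving the replicate number. The groups do not overlap for any of the 14, and Mock 3 lies far below the other Mock arrays for miR-192 and miR-155. For miR-346 the Mock 2 and Mock 3 points coincide at 9.07.

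Of the 3 falls, that of miR-155, a miRNA of activated immune cells, rested on the Mock arrays that were high. Its precursor read 9.09 and 9.33 on Mock 1 and Mock 2, 6.85 on Mock 3, and 6.67, 6.29 and 6.52 on the HDAC6 arrays. Mock 3 was thus nearer to the HDAC6 arrays than to its own group. The fall was 3.80-fold (log2 difference -1.93, SE 0.598, adjusted p = 0.0315), and 6.56-fold without Mock 3 (adjusted p = 0.0032). The call was lost without any other array (0.0546 to 0.105) and with the offset (0.0579).

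The precursor of miR-92a-1, from the proliferation-linked miR-17/92 cluster, read 6.78, 6.54 and 6.25 in Mock and 5.88, 5.56 and 5.16 in HDAC6. All HDAC6 arrays lay under all Mock arrays, with a log2 difference of -0.99 (SE 0.253) and an adjusted p of 0.0157. Leaving out Mock 1 (0.0554) or HDAC6 3 (0.0532) ended the call, as did quantile normalization done a further time (0.0568) and control-probe centring (0.0656). The size also depended on the scale of low signals, at -0.68 with the repeated quantile normalization and -0.40 with the offset. The precursor of miR-26a-2, whose mature form restrains growth of liver tumours in mice, read 6.79, 6.10 and 6.49 in Mock and 5.47, 5.71 and 5.91 in HDAC6. Its log2 difference was -0.76 (SE 0.239, adjusted p = 0.0318), and leaving out each array other than Mock 2 ended the call (0.0503 to 0.118). Repeated quantile normalization (-0.49, adjusted p = 0.1), control-probe centring (0.12), the offset (-0.32, adjusted p = 0.075) and the replicate number as a block (0.0525) ended it too. On the HDAC6 arrays these 2 probes were among the dimmest of the whole array, at percentiles from 0.9 to 10.5 of its probes.

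By role, 25 of the 52 precursors stood in at least 1 of 13 lists of miRNAs, and 6 further lists had no precursor probe under 500. In the let-7 family 0 of 3 passed (limma). The let-7e precursor was at 0.84 (95% interval -0.03 to 1.71), let-7i at -0.31 (-0.90 to 0.27) and let-7a-1 at -0.75 (-1.62 to 0.11), and the unadjusted p ran from 0.0574 to 0.25. The let-7a-1 precursor passed with array weights (adjusted p = 0.0378) and without Mock 2, where it was at -1.17 (adjusted p = 0.0141), and the let-7e precursor passed without Mock 1, at 1.16 (adjusted p = 0.0477). Their median was -0.31, and their intervals leave room for changes in either direction.

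In the hypoxia list of 3 precursors, miR-210 rose, miR-26a-2 fell and miR-107 was at -0.13 (adjusted p = 0.686). Of 6 precursors of neural miRNAs, miR-346 and miR-326 rose and 4 did not pass, with a list median of 0.32. Those 4 were miR-212 at 0.65 (SE 0.267, adjusted p = 0.0805), miR-9-1 at -0.01, miR-128-2 at -0.02 and miR-219-2 at -0.36. In the miR-17/92 list miR-92a-1 fell and miR-18b was at 0.18 (adjusted p = 0.43). The 2 precursors of the imprinted 14q32 cluster, miR-370 at 0.01 and miR-154 at -0.38, did not pass, but miR-154 did without Mock 2, at -0.93 (adjusted p = 0.04). The epithelial miR-200b and miR-200c precursors were at -0.01 and 0.32 and did not pass, nor did those of miR-30c-1 at 0.16, miR-181c at 0.22 and miR-27a at 0.08. Each of these lists held at most 6 precursors, against all-probe shares of 21.3% higher and 24.4% lower.

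Some of the hairpins lie next to each other in the genome. The precursors of miR-99b, let-7e and miR-125a lie in this order on the plus strand of chromosome 19, with 104 bases between the miR-99b and let-7e hairpins and 389 between those of let-7e and miR-125a. They are known as a cluster with a shared primary transcript.
miR-99b hairpin, chr19:51692612-51692681, plus strand: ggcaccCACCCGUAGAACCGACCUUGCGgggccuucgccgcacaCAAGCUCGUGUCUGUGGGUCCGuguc
let-7e hairpin, chr19:51692786-51692864, plus strand: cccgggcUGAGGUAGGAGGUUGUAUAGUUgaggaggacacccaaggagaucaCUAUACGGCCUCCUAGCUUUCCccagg
The miR-99b precursor read 5.86, 5.58 and 6.09 in Mock and 6.00, 6.26 and 6.04 in HDAC6, with overlapping groups and a difference of 0.26 (95% interval -0.23 to 0.74, adjusted p = 0.343). The let-7e precursor read 7.12, 6.18 and 6.15 in Mock and 7.31, 7.91 and 6.74 in HDAC6, again with overlap (adjusted p = 0.104). Only the probe of miR-125a, whose hairpin is printed above, passed in this cluster on all 6 arrays as deposited. The miR-99b precursor passed with repeated quantile normalization, at 0.62 (adjusted p = 0.0355), and that of let-7e without Mock 1, as given above. Whether the 3 differences, 0.26, 0.84 and 1.25, differ from each other was not tested, and the miR-99b probe was among the 3 dimmest of the 52.

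On chromosome 3, the hairpins of miR-191 and miR-425 lie 383 bases apart on the minus strand. The miR-425 precursor rose, as given above, while the miR-191 precursor read 7.11, 6.00 and 6.32 in Mock and 6.23, 6.40 and 6.55 in HDAC6. Its difference was -0.08 (95% interval -0.77 to 0.62, adjusted p = 0.852), and Mock 1 was its high array. The intervals of the miR-425 precursor (0.24 to 1.15) and the miR-191 precursor overlap, and whether their differences differ was not tested.

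**Figure D3:**
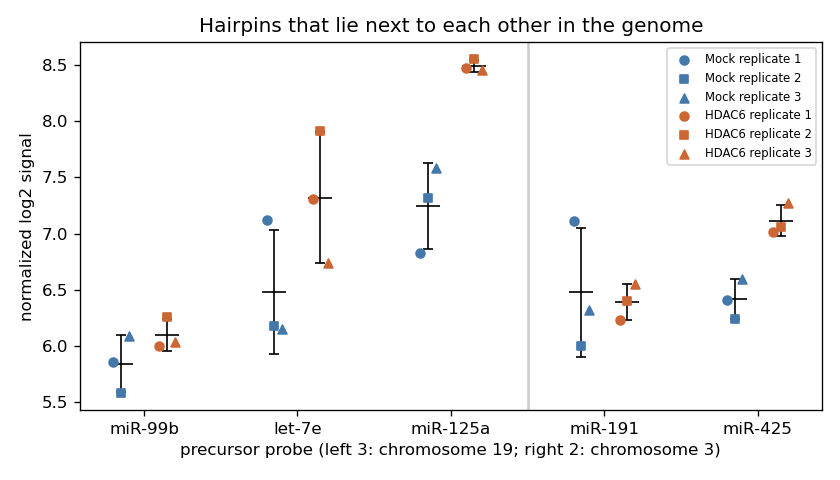
Normalized log2 signal (y axis) of the precursor probes of hairpins that neighbour each other on chromosome 19 (miR-99b, let-7e, miR-125a) and chromosome 3 (miR-191, miR-425), with 1 point per array, a bar for the mean and whiskers for the SD (n = 3). Mock and HDAC6 arrays are apart for miR-125a and miR-425 and overlap for the other hairpins.

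Mature probes of the same miRNA were on the array for 40 of the 52 precursors, giving 59 pairs. In each array the precursor signal was subtracted from the mature signal, and the change of that difference was tested by limma over all 92 pairs of the array. Mature lower relative to precursor was found in 21 of the 59 pairs, from 18 precursors, where 23 of all 92 pairs, 25%, passed in that direction. Mature higher was found in 0 of the 59 (limma, 4 at an unadjusted p under 0.05, smallest adjusted p 0.0501), where 6.52% of all pairs passed. The 92 pairs include the 59, and the 23 include the 21, so these shares are no separate background. Other fits put the mature-higher count between 0 and 3. The 21 became 8 without HDAC6 1, and 6 of the 21 held when any single array was left out. Pairs that share a precursor probe are not independent.

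In 14 of those 21 pairs the mature probe itself was lower in HDAC6, in 8 the precursor itself was higher, in 2 both passed, and in 1, that of miR-99b, neither did. Of the 59 mature probes of these miRNAs, 39.0% were lower in HDAC6, where 24.4% of all probes were, and 10.2% were higher, where 21.3% of all probes were. Those of miR-149* (1.33, adjusted p = 0.0049), miR-187* (1.13, 0.0084) and miR-219-2-3p (0.70, 0.025) rose, while neither their precursors nor their pairs passed. The others that rose, miR-125a-3p, miR-139-3p and miR-346, had precursors that rose too. Among the 21 pairs, the 2 in which both passed were those of miR-192. Its mature probe read 13.01, 13.19 and 13.27 in Mock and 11.57, 10.24 and 11.97 in HDAC6, and that of the star strand 8.14, 7.72 and 8.31 in Mock and 6.93, 6.99 and 6.57 in HDAC6. Both strands were lower on every HDAC6 array, while the hairpin probe was higher on every one. Relative to the hairpin, the guide strand changed by -3.59 (SE 0.635) and the star strand by -2.92 (SE 0.476), with an adjusted p of 0.0108 for each pair.

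The mature arms of miR-125a lay on opposite sides of their hairpin. The 3p probe read 7.44, 7.96 and 7.77 in Mock and 9.86, 9.88 and 9.61 in HDAC6, and the 5p probe 7.80, 10.52 and 8.05 in Mock and 6.79, 7.28 and 6.92 in HDAC6. The 3p probe rose (log2 difference 2.06, adjusted p = 0.0015). The 5p probe, for which Mock 2 was far above its group, missed the threshold in the main fit (log2 difference -1.80, adjusted p = 0.0558). It passed with median centring (0.0357), control-probe centring (0.0445), trend and robust priors (0.0407), array weights (0.0352) and the replicate block (0.0259). With repeated quantile normalization (0.0513) and the offset (0.109) it did not. Relative to the hairpin, the 5p strand changed by -3.04 (SE 0.615, adjusted p = 0.0108) and the 3p strand by 0.81 (SE 0.286, adjusted p = 0.053).

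For miR-30c, miR-148b and miR-181c the guide strands fell and the precursors did not pass. The miR-30c probe read 10.70, 11.06 and 11.34 in Mock and 9.19, 9.62 and 9.90 in HDAC6. The miR-30c-1 precursor stayed between 6.05 and 6.50 on all arrays, a change of -1.62 in the pair (SE 0.324, adjusted p = 0.0108). This precursor lay at percentiles 4.0 to 10.3 of the Mock arrays. Whether it stood above background is unknown, so its steady level may not be that of the hairpin. The miR-30c-1* probe was at -0.06 (adjusted p = 0.852). Both strands of miR-148b fell, with a precursor at 0.38 (SE 0.219, adjusted p = 0.182, but 0.04 with array weights), and the star strand of the pair changed by -1.97 (SE 0.384). The guide strand of miR-181c fell from 7.82 ± 0.38 to 6.08 ± 0.20 and changed by -1.96 relative to its precursor (SE 0.446, adjusted p = 0.0173). Its star strand read 6.31, 6.33 and 6.28 in Mock and 7.02, 9.11 and 6.88 in HDAC6. All HDAC6 arrays were above the Mock arrays, HDAC6 2 by far the most, and neither the probe (1.36, adjusted p = 0.0753) nor its pair (1.14, adjusted p = 0.188) passed. For miR-210, miR-220a, miR-339 and miR-345 the precursor rose and the mature probes did not pass in the main fit. The mature probe of miR-210 was at -0.68 (adjusted p = 0.0697) and that of miR-345 at -0.43 (0.0812). With array weights those of miR-210 (0.0454) and miR-339-3p (0.0167) passed lower. So did those of miR-210 (0.0463) and miR-220a (0.0455) with the replicate block, and that of miR-345 with the offset (0.0388). The miR-210 pair was lost without Mock 1 (0.0559), and those of miR-339 and miR-345 without HDAC6 1 (0.0569 to 0.0862).

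The remaining pairs past the threshold were those of let-7i, miR-18b, miR-99b, miR-130b, miR-152, miR-191, miR-200b, miR-220a, miR-338-3p and miR-422a, at -1.71 to -0.92. Each of them was lost when at least 1 array was left out. The precursors of miR-130b, miR-152, miR-338 and miR-422a were at 0.07, -0.04, -0.42 and 0.31 and did not pass on their own. Those of miR-99b, miR-130b and miR-422a lay at percentiles 0.7 to 6.5 of the Mock arrays, and whether they stood above background is unknown. Over the 59 pairs the median change was -0.77, and over all 92 it was -0.37.

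**Figure D4:**
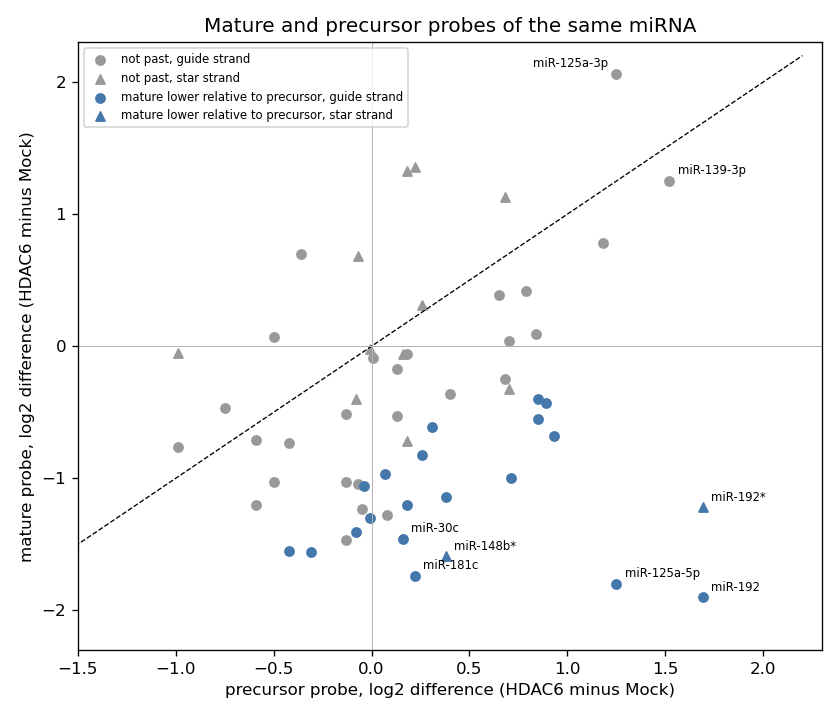
Log2 difference (HDAC6 minus Mock) of the mature probe (y axis) against that of the precursor probe of the same miRNA (x axis) for 59 pairs, with circles for guide strands and triangles for star strands. Blue marks the 21 pairs whose mature minus precursor signal was lower in HDAC6 at an adjusted p under 0.05, and the dashed line marks equal change.

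The rule did not use base composition. Across the 47 matched hairpins, GC content and the log2 difference had r = 0.50 (Spearman rho 0.52), GC content and mean signal r = 0.20, and hairpin length and the log2 difference r = 0.39. These are descriptions across probes that share the same 6 arrays and their normalization. The 10 matched hairpins that rose had a GC content of 57.3% to 73.4% (median 59.8%), and the 2 that fell 48.7% and 47.6%. The 35 that did not pass spanned 40.4% to 73.6% (median 56.0%). The part of base composition in the differences was not tested.

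The brightest probe of the group, the miR-147 precursor, spread widely in both groups. It read 10.40, 10.30 and 8.37 in Mock and 9.77, 10.89 and 8.82 in HDAC6, with a difference of 0.13 (95% interval -1.40 to 1.67). Among the dimmest, the miR-28 precursor read 6.53, 5.94 and 6.26 in Mock and 5.55, 5.65 and 5.74 in HDAC6, without overlap, at -0.59 (adjusted p = 0.0525). It passed with trend and robust priors (0.0462), with array weights (-0.73, adjusted p = 0.0126) and without Mock 2 (-0.75, adjusted p = 0.0302), and was at -0.27 with repeated quantile normalization (0.288) and -0.24 with the offset (0.123). The 15 precursors not named by the rule for named probes lay between -0.50 and 0.68 in their differences, with values from 4.81 to 8.56 on single arrays and adjusted p from 0.0571 in the main fit. Of these, the miR-187 precursor passed with repeated quantile normalization (0.045), with array weights (0.0372) and without Mock 3 (0.93, adjusted p = 0.0177). The miR-184 precursor passed lower with array weights (-0.45, adjusted p = 0.0387).

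At the limit of number 500, the precursors just inside were miR-452 at -0.11 (6.18 ± 0.22 in Mock), miR-425 at 0.70 (6.42 ± 0.18) and miR-422a at 0.31 (5.94 ± 0.03). Those just outside were miR-505 at -0.16 (5.86 ± 0.66), miR-511-1 at 1.43 (6.56 ± 0.17) and miR-513a-2 at 0.76 (9.12 ± 0.42).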

How the data were processed

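Per the labels, 10 ug of RNA was labelled with biotin at the 5′ ends. Per the design text, an Axon scanner and GenePix Pro gave the signals, poor spots were discarded by eye, and the mean of 3 spots was taken for each probe. Quantile normalization and a class-specific filter in GenePlex followed. Not given in the sources used here are the background handling and the rule of that filter. The authors' deposited signals were taken as log2 values because they span 3.52 to 15.78 and because 79.7% of their antilogs are whole multiples of 1/18 (tolerance 0.02 of 1/18). Array medians lay between 7.51 and 7.58, so a change in total miRNA cannot be seen. The number of arrays limits the precision.

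Of 582 rows 1 was blank. The 581 others were 386 guide-strand, 83 star-strand, 104 precursor and 8 control probes. They were fitted together by limma 3.58.1 in R 4.3.3 (lmFit, eBayes, no covariate) after tests on simulated data. A star probe of another locus was not paired with a precursor. A guide probe was paired with any precursor of its base name, whatever the locus. The hairpin of a pair, such as miR-30c-1 for miR-30c, may therefore not be the only source of its guide strand. Hairpins came from RefSeq, in GRCh38.p14, matched by symbol or synonym.

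The members, lists and alternatives were chosen with earlier results of these data known. Named were the 10 largest rises and falls past the threshold without overlap, the 5 brightest and 3 dimmest precursors, miRNAs fixed by name, up to 3 per list, the 3 highest numbers and precursors of pairs past the threshold. The alternatives were median, repeated quantile and control-probe scaling, an offset at the 25th percentile, brighter probes alone, each array left out, a trend with robust priors, weights per array, a block on replicate number, and no control probes.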

Additional observations from a re-analysis of the deposited data

How the results depend on the processing

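Counts of precursor probes past the threshold depended on scaling and on single arrays. The 11 higher probes became 5 with control-probe centring and 7 to 12 when 1 array was left out. Over all probes, the 124 higher and 142 lower became 81 and 85 with that centring, and 152 and 184 with array weights. With 1 array left out, 86 to 118 of all probes were higher and 93 to 139 lower. The 3 lower became 1 with repeated quantile normalization, control-probe centring or the offset, 0 among brighter probes alone (13 precursors tested), 6 with array weights, and 0 to 5 with 1 array left out. The 21 pairs with the mature probe lower became 3 among brighter probes alone, where 9 of the pairs could be formed, and 8 to 19 with 1 array left out. The 0 pairs with it higher became 1 with repeated quantile normalization and among brighter probes, 2 with the replicate block, 3 with the offset, with array weights or with trend and robust priors, and 0 to 2 with 1 array left out. The median difference of 0.10 was 0.27 with repeated quantile normalization, -0.04 with array weights and 0.85 among brighter probes alone. The median over all probes, -0.09 in the main fit, was 0.08 with repeated quantile normalization and -0.17 with array weights. The set of brighter probes is limited by the mean over both groups, so a change in either group can move a probe into or out of it. The precursors of miR-125a, miR-339, miR-326 and miR-212, with Mock means of 7.24, 7.25, 7.23 and 7.37, entered it through their HDAC6 values. That of miR-155 left it through its low HDAC6 values. How far this selection set the median of 0.85 was not tested, and nothing is read from it. The offset, which by construction shrinks differences of dim probes, moved those of the miR-210, miR-220a and miR-425 precursors from 0.93, 0.71 and 0.70 to 0.59, 0.43 and 0.37. Repeated quantile normalization moved the median of all probes by 0.16. The cause of these shifts was not tested, beyond the fewer probes tested among brighter ones and fewer arrays where 1 was left out.

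Differences that changed sign belonged to probes that did not pass. Among precursors not named by the rule, those of miR-9-1, miR-128-2, miR-130a, miR-185 and miR-135b were at -0.21 to -0.01 in the main fit. With repeated quantile normalization they were at 0.09 to 0.28, and all but that of miR-135b were at 0.01 to 0.07 with control-probe centring. Those of miR-324 and miR-328 were at -0.06 and -0.03 with array weights. Some of these also changed sign with 1 array left out. The values that follow are those of named precursors. With repeated quantile normalization the differences were 0.19 for the miR-200b precursor, 0.15 for miR-152, 0.12 for miR-191, 0.26 for miR-452 and 0.21 for miR-107. With control-probe centring they were 0.07 for miR-200b, 0.04 for miR-152 and 0.00 for miR-191. That of miR-370 was -0.01 with median centring and with the offset and -0.07 with array weights, and that of miR-147 was -0.33 with array weights. With 1 array left out, differences ran from -0.05 to 0.47 for miR-181c, -0.53 to 0.64 for miR-147, -0.24 to 0.36 for miR-27a, -0.00 to 0.15 for miR-130b, -0.29 to 0.18 for miR-370, -0.23 to 0.19 for miR-200b, -0.31 to 0.19 for miR-152, -0.32 to 0.24 for miR-191, -0.30 to 0.16 for miR-452, -0.33 to 0.05 for miR-107 and -0.93 to 0.06 for miR-154.

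Arrays of the same replicate number had deviations from their group mean that correlated at 0.160, -0.086 and 0.192 over all probes. Mock 1 correlated best with HDAC6 1 and Mock 3 with HDAC6 3, but Mock 2 also with HDAC6 1 (0.191). Deviations from a mean of 3 arrays are tied to each other, so whether the arrays were paired cannot be told from these values. With the replicate number as a block, 11 precursor probes were higher, 2 lower, and 23 pairs had the mature probe lower. Whether dim probes stood above background limits every statement on the 39 dimmer precursors.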
